A study of Mus musculus with 10 samples.

Results

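The vector control tumors of a study of checkpoint blockade are described here on their own, gene by gene and across the tumors. They are the 5 of 10 RNA-sequencing libraries whose names begin with Vector, and they came from 3 of the study's 7 tumors. Each was a tumor of B16F10, a mouse melanoma cell line, that carried the vector construct. The mice had been given anti-PD-1 with anti-CTLA4 antibody in 4 rounds, and each tumor was frozen in liquid nitrogen once it was taken out. Tumors 1 and 2 were each divided into 2 pieces with a library per piece, and tumor 3 gave 1 library. The remaining tumors of the study carried an Ly86 construct and are not compared here. All 5 libraries share the antibodies, so no value below measures the effect of the treatment. The strain and age of the mice are not given in the sources used here, and whether the numbered tumors came from separate mice is likewise not given.

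PD-1 and CTLA4 are inhibitory receptors of T cells, and antibodies against them release T cells to attack tumor cells. Activated T and NK cells secrete interferon gamma, which switches on guanylate-binding proteins, immunity-related GTPases, antigen presentation genes and Cd274, the ligand of PD-1. B16 melanoma cells hold abundant pigment gene transcripts and show little MHC class I on their surface until interferon reaches them. A piece of a tumor can also hold immune cells, vessels, fibroblasts, hair follicles, epidermis and muscle. In bulk RNA, fewer cells of a type and less RNA per cell cannot be told apart.

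Levels are given in TPM, transcripts per 1000000 of a library, or as log2(TPM + 1). The value of a tumor is the mean log2(TPM + 1) of its pieces, and the range of a gene is its highest minus its lowest tumor in log2 units. Of 27919 genes, 14123 reached 1 TPM on average over the 3 tumors and were kept. Where 5 values follow each other, they are in library order: the first and second pieces of tumor 1, the first and second pieces of tumor 2, and tumor 3. Between 19304 and 21882 genes had a value above 0 in a library, and read depth is unknown because TPM does not keep it.

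The first piece of tumor 2 stood apart from the other libraries. Its Pearson correlation with them across the 14123 genes was 0.843 to 0.918, against 0.945 to 0.966 among the other 4 libraries. The pieces of tumor 2 correlated at 0.874, and the pieces of tumor 1 at 0.965. The first piece of tumor 1 and the second piece of tumor 2, from different tumors, correlated at 0.966. These correlations are across genes, which are not independent replicates.

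The transcripts were those of pigmented melanoma. All 22 genes of the melanocyte lineage list were kept, and together they made up 1.36% of TPM in the first piece of tumor 2 and 2.15% to 2.54% in the other 4 libraries. Dct, which encodes a melanin synthesis enzyme, stood at 6291, 6119.9, 3179.6, 6667 and 5391 TPM, or 12.39 ± 0.22 log2(TPM + 1) (SD, n = 3). Tyrp1, another enzyme of the pathway, stood at 4121, 4735, 2687, 4859 and 4233 TPM. Pmel, which forms the fibrils that carry melanin, stood at 4541, 4153, 2633, 5028 and 3967 TPM. For all 3 genes the first piece of tumor 2 was the lowest library and its second piece the highest.

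The 25 most abundant genes held 14.8% to 16.4% of TPM in each library. Besides Dct, Tyrp1 and Pmel, they were 5 mitochondrially encoded genes (mt-Atp8, mt-Co1, mt-Cytb, mt-Co2 and mt-Nd1), 5 ribosomal protein genes (Rplp1, Rpl32, Rpl36, Rpl23a and Rps27) and both chains of the iron store ferritin (Ftl1 and Fth1). The glycolysis genes Gapdh and Eno1, the elongation factor Eef1a1, the actin-binding peptide Tmsb10, the folding enzyme Ppia and B2m, the light chain of MHC class I, were also among them. The remaining 4 were Gm10925, Gm28661, Gm28437 and Gm28438, predicted genes whose transcripts match mitochondrial genes. Gm10925, the highest of all, stood at 12729, 12879, 11895, 12990.5 and 11134 TPM. In the GENCODE transcripts of GRCm38, its 678 bases were identical to mt-Atp6, and Gm28661 and Gm28437 were identical to mt-Co2 and mt-Co3 over 681 and 783 bases. Gm28438 matched mt-Nd3 over 345 bases with 1 mismatch. Reads of each pair can be shared and the split between them is uncertain, whereas Gm10925 and mt-Atp6 together held 13669.7 to 15887 TPM.

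Most of the abundant genes differed little between tumors. Ftl1 stood at 6686, 6969, 7371, 6879 and 6434 TPM, a range of 0.15. Rpl36 had a range of 0.045 and Rplp1 of 0.077. B2m was the exception, at 2137, 1344, 6592, 4009 and 4338 TPM and 11.71 ± 0.86 log2(TPM + 1) (SD, n = 3). Its range of 1.60 was the widest of the 25, followed by Fth1 at 0.60 and Tmsb10 at 0.59. Both pieces of tumor 1 lay below every other library for B2m.

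**Figure D1:**
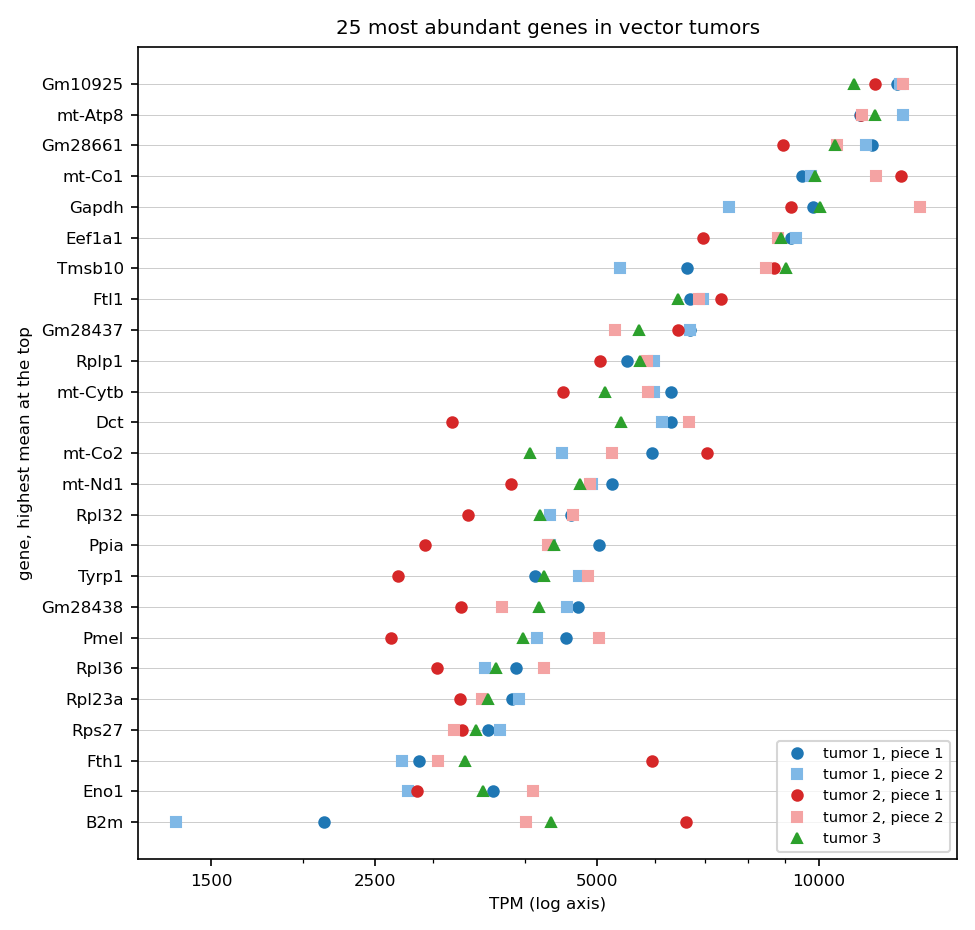
TPM of the 25 most abundant genes (log axis), with 1 point per library and genes ordered by their mean over the 3 tumors. Most genes hold their 5 points close together, while B2m spreads from 1344 TPM in the second piece of tumor 1 to 6592 TPM in the first piece of tumor 2, and Dct, Tyrp1 and Pmel are lowest in the first piece of tumor 2.

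Across all kept genes the range had a median of 0.40, with quartiles of 0.23 and 0.70, and it reached 2 or more in 558 genes (3.95%). The range over tumors was set against the spread between pieces in limma's moderated F test, with Benjamini-Hochberg adjustment over all 14123 genes. The F test called 0 genes (percent called 0), with 795 at an unadjusted p under 0.05 (5.63%) and a smallest adjusted p of 0.875. Each pairwise contrast of tumors also called 0 genes, with 1559 at an unadjusted p under 0.05 between tumors 2 and 1, 249 between tumors 3 and 1 and 312 between tumors 3 and 2. The test had 2 residual degrees of freedom, from the pieces of tumors 1 and 2, and it assumes that tumor 3, with 1 library, varies like the others. No difference between tumors named below passed it, and the p-values measure only the spread between pieces of a tumor.

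Differences between the pieces of tumor 2 were as large as differences between tumors for many genes. Of the total sum of squares over the 14123 genes, 45.5% lay between tumors, 12.3% between the pieces of tumor 1 and 42.3% between the pieces of tumor 2. The share between tumors rests on more degrees of freedom than that of either pair of pieces, so a larger share is not a larger variance. The median absolute difference between pieces was 0.21 in tumor 1 and 0.36 in tumor 2. It exceeded the range over the 3 tumors in 26.9% of genes for tumor 1 and in 49.1% for tumor 2.

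The widest genes had an order of their own. Tumor 1 was the lowest tumor for 338 of the 500 genes with the widest range (67.6%), where it was lowest for 39.2% of all kept genes. Tumor 2 was the highest for 257 of them (51.4%), against 31.4% of all. The libraries that lay above the midpoint of a gene's 5 values were grouped, and 5 groupings took most of the 500. The first piece of tumor 2 with tumor 3 accounted for 123 genes (24.6%, against 7.02% of all kept genes). Both pieces of tumor 2 with tumor 3 accounted for 84 (16.8%, against 4.36%). The second piece of tumor 1 with tumor 3 accounted for 64 (12.8%, against 5.14%). The first piece of tumor 2 alone accounted for 82 (16.4%, against 11.02%), and both pieces of tumor 2 for 30 (6%, against 4.07%). The groupings without tumor 3 thus lay nearer to their shares of all kept genes. These groupings were chosen after the values were seen.

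By the rule for naming genes, which leaves out predicted genes (8 of them here), the 15 widest were Krtap22-2, Krtap8-1, Krtap15, Rpl38-ps2, Krtap7-1, Krtap14, Gbp10, Krtap16-3, Gzmc, Krtap6-5, Krtap3-1, Krtap6-1, Gbp4, Krtap19-3 and Krt33a. They held 10 hair keratin-associated genes and a hair keratin, 2 guanylate-binding genes, a granzyme and a ribosomal protein pseudogene. Krtap11-1 and Apol6, at ranges of 4.21 and 4.19, were the next after Krt33a at 4.24. Rpl38-ps2 stood at 43.8, 0, 0, 0 and 38.1 TPM, listed at 0 in 3 libraries, and can share reads with the gene it resembles.

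**Figure D2:**
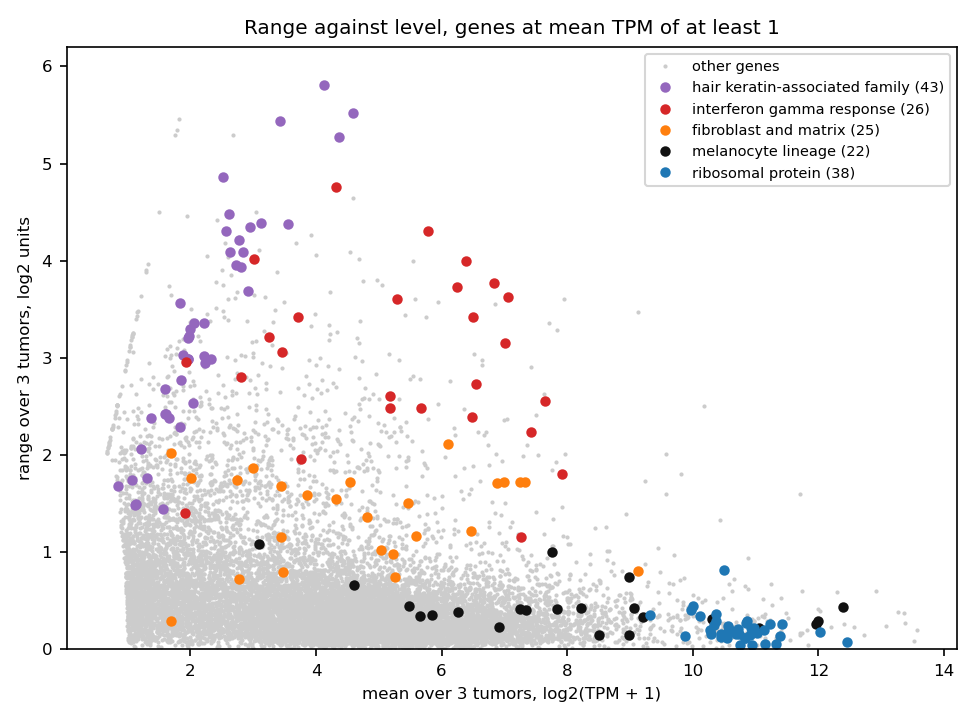
Range over the 3 tumors (log2 units) against mean log2(TPM + 1) for the 14123 kept genes, with 5 groups in color. Hair keratin-associated and interferon gamma response genes reach the widest ranges, up to 5.81 and 4.76, fibroblast and matrix genes lie lower, and melanocyte and ribosomal protein genes stay near the bottom at high levels.

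Genes of the interferon gamma response were low in both pieces of tumor 1 and high in tumors 2 and 3. In all 26 kept genes of the list, both pieces of tumor 1 lay below every other library, where 15.9% of all kept genes did so. The median range was 3.01, against 0.40 over all kept genes. A list score, the mean log2(TPM + 1) of its kept genes, was 3.77, 3.18, 6.98, 5.85 and 6.10, or 5.33 ± 1.62 (SD, n = 3) over tumors. The list also stood higher in the first piece of tumor 1 than in its second in 22 of 26 genes, against 29.8% of all kept genes. The score was higher in the first piece of tumor 2 than in its second, as were 26 of 26 genes, against 47.6% of all kept genes. The T cell and macrophage list scores were lowest in tumor 1 as well, and their part in this order was not tested. Without the first piece of tumor 2 the median range was 2.68, and without tumor 1 it was 0.38.

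The members with the widest range were GTPases and a ubiquitin-like protein. Gbp10, a guanylate-binding protein, stood at 2.13, 1.48, 96.3, 57.4 and 37.0 TPM, or 4.32 ± 2.51 log2(TPM + 1) (SD, n = 3). Its family member Gbp4 stood at 12.5, 4.41, 238, 119 and 114 TPM, or 5.78 ± 2.34 (SD, n = 3). Ubd, which tags proteins for the proteasome, stood at 0.82, 0.61, 73.7, 9.21 and 9.98 TPM, with the first piece of tumor 2 far above the rest. Tgtp1, an immunity-related GTPase, stood at 24.6, 6.98, 251, 205 and 179 TPM, or 6.39 ± 2.21 (SD, n = 3). Tgtp1 and Tgtp2 are near-identical, as are some members of the Gbp family, and the split of reads between them is uncertain. Psmb10, a subunit of the immunoproteasome, was the most abundant member at 139.7, 81.5, 468, 302 and 344 TPM, and its range was 1.81. Ifng, which encodes the cytokine itself, was listed at 0, 0.09, 6.30, 2.13 and 2.44 TPM and was chosen after its values were seen.

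Many interferon gamma response genes hold sequences in their promoters that interferon-activated factors are known to bind, and the stretches below show them for genes whose range was wide. RefSeq promoters on GRCm38.p6, from 250 bases before to 50 bases after the gene start, were searched for the interferon-stimulated response element, spelled as GAAA, any 2 bases and GAAA again, and for the gamma-activated site, spelled TTCNNNGAA, on both strands. Of 32851 promoters, 3.44% held the first and 8.30% the second. Of the 18 interferon gamma response genes with a promoter in the table, 12 held the first (66.7%) and 8 the second (44.4%), against 3.93% and 8.35% of the 10439 kept genes with a promoter. Either motif was held by 11.7% of the kept genes with a promoter. Among 16 melanocyte lineage genes 0 held either, as among 20 unfolded protein response genes, so the 0 does not set the lineage apart. The 4 genes with the widest range among those 12 are printed 5′ to 3′ on the gene's strand, with matches to either motif in capitals. A match describes letters and is not evidence of binding here.
Tgtp1: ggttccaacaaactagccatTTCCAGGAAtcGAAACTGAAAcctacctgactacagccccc
Gbp2: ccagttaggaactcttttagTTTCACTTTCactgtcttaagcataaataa
Igtp: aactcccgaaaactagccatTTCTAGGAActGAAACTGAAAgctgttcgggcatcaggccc
Gbp5: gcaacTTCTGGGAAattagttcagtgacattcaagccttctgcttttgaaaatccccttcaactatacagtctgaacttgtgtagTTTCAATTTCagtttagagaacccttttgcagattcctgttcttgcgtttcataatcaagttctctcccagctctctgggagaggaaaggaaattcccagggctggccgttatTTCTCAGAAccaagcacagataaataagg

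The Tgtp1 stretch lies at chr11:48992294-48992354 on the minus strand, the Gbp2 stretch at chr3:142620584-142620633, the Igtp stretch at chr11:58199491-58199551 and the Gbp5 stretch at chr3:142496684-142496910, the last 3 on the plus strand. In Tgtp1 and Igtp the gamma-activated site comes first and the response element follows 2 bases after it, beginning 77 and 34 bases before the gene start. Gbp2 holds a response element on the opposite strand that begins 59 bases before the start. Gbp5 holds a gamma-activated site at 245 and at 52 bases before the start, with a response element on the opposite strand between them. Gbp2 stood at 30.2, 15.8, 463, 209 and 209 TPM. Igtp stood at 42.6, 16.6, 418, 279 and 250.2 TPM, and Gbp5 at 2.41, 2.04, 68.9, 16.0 and 19.5 TPM. These 3 genes were chosen by range among list members with a response element. Both pieces of tumor 1 were their lowest libraries, as in every kept gene of the list.

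Antigen presentation genes followed the same order. In the MHC class I list, both pieces of tumor 1 lay below every other library in 19 of 20 genes, against 15.9% of all kept genes, and the median range was 2.29. H2-T23, a nonclassical class I heavy chain, had the widest range at 31.2, 20.1, 451, 206 and 194 TPM. Psmb9, an immunoproteasome subunit, stood at 43.3, 11.7, 266, 141 and 167 TPM, and Tap1, which carries peptides into the endoplasmic reticulum, at 38.9, 19.1, 305, 162 and 156 TPM. H2-K1, a classical heavy chain, stood at 547, 302, 3551, 1492 and 1677 TPM, or 10.18 ± 1.33 log2(TPM + 1) (SD, n = 3). The lowest library of these 4 genes was in each case the second piece of tumor 1. Without tumor 1 the median range of the list was 0.27, and without the first piece of tumor 2 it was 1.98. The pieces of tumor 2, averaged in the former, differed by a median of 0.90 log2 units.

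MHC class II had the widest median range of all the lists, at 3.28 over 11 kept genes. The lists were chosen with earlier results of these data known. Both pieces of tumor 1 lay below every other library in 9 of 11, against 15.9% of all kept genes. Cd74, the invariant chain that guides class II molecules, stood at 105, 124, 2424, 669 and 1202 TPM, or 9.13 ± 1.98 (SD, n = 3). H2-Aa, the alpha chain of the I-A molecule, stood at 43.2, 49.8, 1017, 325 and 555 TPM. H2-DMb1, part of the exchange factor that loads peptides, stood at 11.5, 6.34, 176, 76.0 and 97.0 TPM. Unlike the interferon gamma list, the pieces of tumor 1 were alike here, with list scores of 3.88 in each. Without tumor 1 the median range was 0.16.

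Type I interferon response genes had a median range of 1.95, and both pieces of tumor 1 lay below every other library in 31 of 32, against 15.9% of all kept genes. Zbp1, a sensor of Z-form nucleic acids, stood at 20.04, 7.28, 248, 98.3 and 111 TPM. Mx1, an antiviral GTPase, stood at 1.95, 1.83, 38.9, 7.69 and 9.21 TPM, and Irf7, a factor that drives interferon genes, at 10.2, 9.86, 132, 34.1 and 34.4 TPM. Bst2, which tethers viruses to the cell surface, was the most abundant member at 348, 242, 1175, 795 and 783 TPM. The list scored 3.42, 3.17, 5.79, 4.65 and 4.77 in library order. Without the first piece of tumor 2 the median range was 1.56, and without tumor 1 it was 0.45. Many genes answer to both kinds of interferon, and of the 23 genes of this list with a promoter, 13 held the response element and 4 the gamma-activated site.

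**Figure D3:**
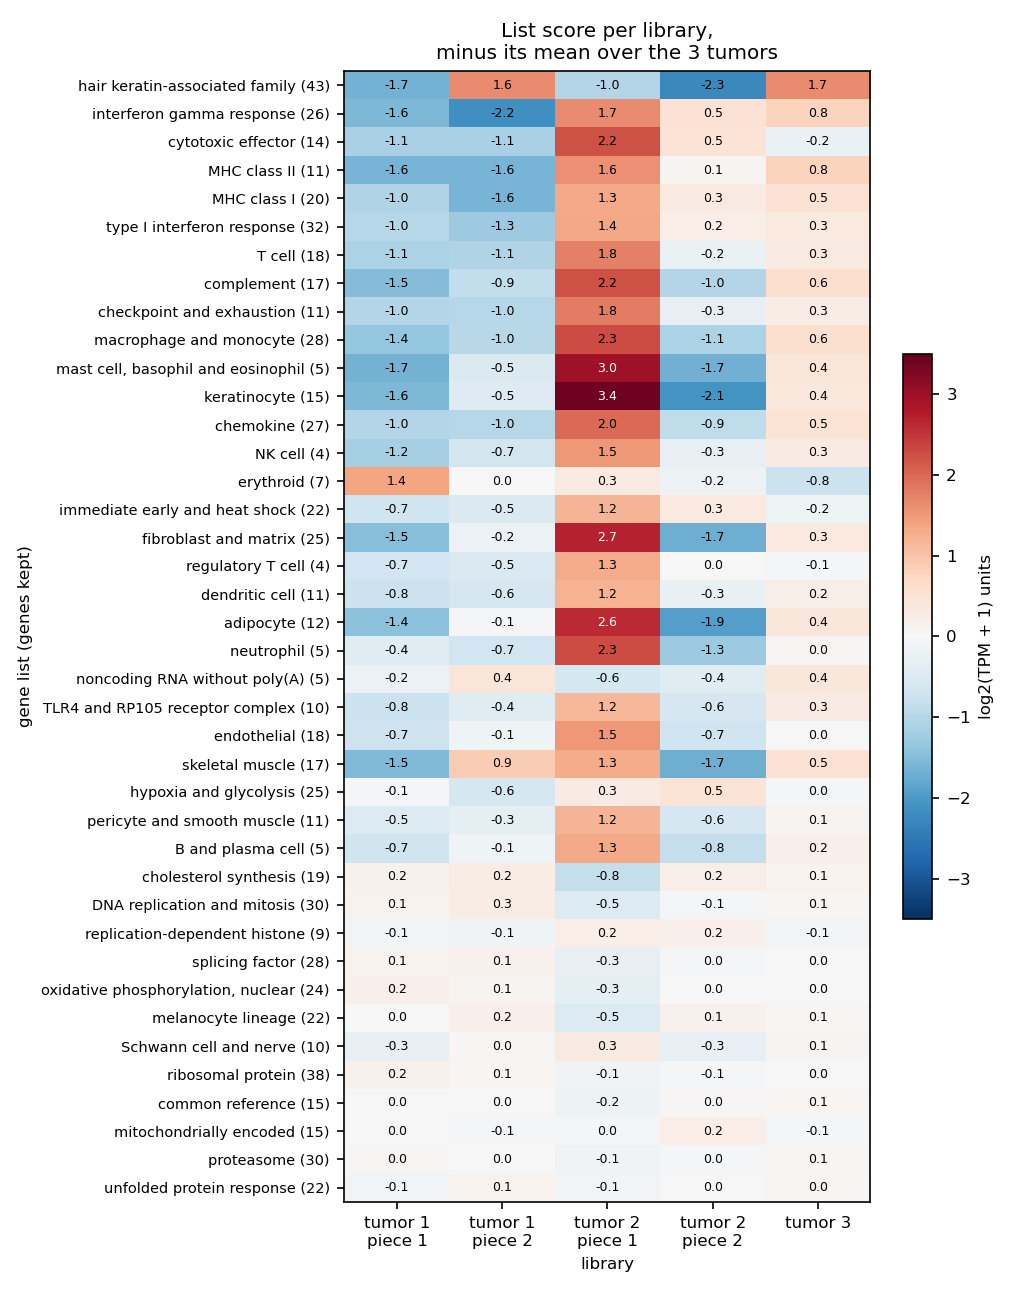
List score in each library minus its mean over the 3 tumors (log2(TPM + 1) units, color and number), for 40 gene lists ordered by their range over tumors, with the number of kept genes in parentheses. Both tumor 1 columns are blue for interferon, MHC and T cell lists, the first piece of tumor 2 is the reddest column for most cell type lists, and the hair keratin-associated row is red only in the second piece of tumor 1 and in tumor 3.

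Lymphocyte genes were low in tumor 1 and highest in the first piece of tumor 2. In the T cell list, the first piece of tumor 2 was the highest library in 18 of 18 kept genes, against 30.5% of all. Both pieces of tumor 1 lay below every other library in 16, against 15.9%. The filter left out 3 genes of the list. Genes high in the first piece of tumor 2 pass it more easily, so that piece's count partly follows from the filter. Trbc2, a constant chain of the T cell receptor, stood at 2.25, 0.98, 54.2, 6.94 and 8.70 TPM. Trac, the alpha constant chain, stood at 1.08, 1.36, 34.2, 7.61 and 6.29 TPM, and Cd8b1, a chain of the CD8 coreceptor, at 0.07, 0.13, 17.1, 2.96 and 4.50 TPM. The second piece of tumor 2 and tumor 3 lay close together for these 3 genes. The median range was 1.75 over 18 genes, 1.55 without the first piece of tumor 2 and 0.64 without tumor 1. The last value averages unlike pieces of tumor 2, with T cell scores of 3.92 and 1.91, against 2.46 in tumor 3. The list of NK cell genes had 4 kept genes, led by the receptor chain Klrd1 at 0.72, 1.18, 17.0, 5.47 and 5.30 TPM.

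Some cytotoxic genes, but not all, differed from the T cell list in tumor 3, which gave 1 library. Tumor 2 was the highest tumor in 13 of 14 kept genes of the cytotoxic effector list, against 31.4% of all kept genes. The filter left out 3 genes of the list, and genes high in tumor 2 pass it more easily. Tumor 3 was the lowest in 5, against 13.1% of all, and tumor 1 in 9, against 39.2%. Gzmc, a granzyme, stood at 2.16, 1.17, 36.0, 12.1 and 0 TPM, and so was listed at 0 in tumor 3. Gzmb, the granzyme that activates caspases in target cells, stood at 1.63, 0.89, 94.5, 14.6 and 6.33 TPM, or 3.10 ± 2.07 log2(TPM + 1) (SD, n = 3). Nkg7, a protein of cytotoxic granules, stood at 1.72, 0.99, 50.5, 8.89 and 12.8 TPM, with tumor 3 above the second piece of tumor 2. Gzmc lies in a cluster of similar granzyme genes that can share reads. The median range was 2.41, and it was 1.99 without the first piece of tumor 2 and 1.08 without tumor 1.

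Both antibody targets were measured at low levels. Pdcd1, which encodes PD-1, stood at 0.55, 0.29, 14.8, 2.20 and 3.70 TPM, a range of 2.33 with an adjusted p of 0.875 in limma's F test. Ctla4 stood at 0.38, 0.53, 14.3, 2.48 and 0.82 TPM, also a range of 2.33 (adjusted p = 0.875 in limma's F test). In tumor 3, Pdcd1 lay above the second piece of tumor 2, whereas Ctla4 lay below it. Cd274, which encodes the PD-1 ligand, stood at 10.9, 8.52, 107, 52.4 and 35.5 TPM, or 4.95 ± 1.43 log2(TPM + 1) (SD, n = 3). It was 2.84 log2 units higher in tumor 2 than in tumor 1 (SE 0.40), with an adjusted p of 0.424 in limma's contrast. All 11 kept genes of the checkpoint and exhaustion list were highest in the first piece of tumor 2, against 30.5% of all kept genes. Tumor 1 was the lowest tumor in all 11, against 39.2%. The filter left out 4 genes of the list. Genes high in the first piece of tumor 2 pass it more easily, so that piece's count partly follows from the filter. Without the first piece of tumor 2 the ranges were 1.73 for Pdcd1, 1.26 for Ctla4 and 2.33 for Cd274.

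Ly86, the gene introduced in the study's other group, was measured in these controls too. It encodes MD-1, a secreted partner of the receptor Cd180 (RP105) on B cells and myeloid cells. Ly86 stood at 6.24, 9.88, 80.9, 7.85 and 30.3 TPM, or 4.29 ± 0.99 log2(TPM + 1) (SD, n = 3), and Cd180 at 3.16, 4.11, 28.9, 3.84 and 13.9 TPM, or 3.23 ± 0.90 (SD, n = 3). Both genes were highest in the first piece of tumor 2 and next highest in tumor 3, and the other 3 libraries lay close together. Neither range passed, with adjusted p of 0.897 for Ly86 and 0.887 for Cd180 in limma's F test. Ptprc, which encodes the leukocyte marker CD45 and was chosen after its values were seen, stood at 3.41, 6.53, 73.0, 6.98 and 25.3 TPM, in the same order of libraries except between the second piece of tumor 1 and the second of tumor 2. Ly96, whose product MD-2 pairs with Tlr4, stood at 28.0, 27.7, 26.0, 27.1 and 34.2 TPM and did not share that order.

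Myeloid genes separated the pieces of tumor 2 as well as the tumors. In all 28 macrophage and monocyte list genes the first piece of tumor 2 lay above its second, against 47.6% of all kept genes. The median difference was 3.42 log2 units, whereas the corresponding median for the interferon gamma list was 0.86. The list score was 3.52, 3.90, 7.16, 3.78 and 5.45, so the second piece of tumor 2 lay with tumor 1. Marco, a scavenger receptor, stood at 1.32, 0.77, 141, 3.57 and 9.12 TPM, or 3.01 ± 1.85 log2(TPM + 1) (SD, n = 3). Nos2, which makes nitric oxide in activated macrophages, stood at 1.06, 1.06, 30.9, 7.62 and 5.36 TPM. Lyz2, the lysozyme of myeloid cells, stood at 168, 290.1, 1808, 144 and 530 TPM, with the second piece of tumor 2 as the lowest library. Apoe, the most abundant member, stood at 1668, 1703, 2541, 1831 and 1783 TPM, a range of 0.36. The median range of the list was 1.99, and it was 2.08 without the first piece of tumor 2 and 0.35 without tumor 1. Averaging the unlike pieces of tumor 2 placed that tumor near tumor 3, at list scores of 5.47 and 5.45.

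Complement and chemokine genes had a like pattern. In the complement list 16 of 17 kept genes, and in the chemokine list 27 of 27, lay higher in the first piece of tumor 2 than in its second. Of all kept genes, 47.6% did so. The list medians of this difference were 3.49 and 2.68 log2 units. Serping1, the inhibitor of the first complement component, stood at 10.1, 23.9, 361, 35.1 and 65.6 TPM. Cxcl9, an interferon-induced attractant of T cells, stood at 10.3, 5.16, 291, 34.5 and 69.0 TPM. Ccl8, an attractant of monocytes, stood at 37.0, 97.9, 1651, 67.5 and 379 TPM. The pieces of tumor 1 had opposite orders in these chemokines, with Cxcl9 lower and Ccl8 higher in the second piece. The median ranges were 2.12 for complement and 1.85 for chemokines, and 0.42 and 0.40 without tumor 1. As with the macrophage list, the unlike pieces of tumor 2 averaged to a value near tumor 3.

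Stromal and fat genes differed more between the pieces of tumor 2 than between tumors. In the fibroblast and matrix list the first piece of tumor 2 lay above its second in 25 of 25 genes. Of all kept genes, 47.6% did so, and the list median was 4.59 log2 units. The second piece of tumor 1 lay above its first in 25 of 25, by a median of 1.18, against 69.6% of all kept genes. Both pieces of tumor 1 lay below every other library in 0 of 25, against 15.9% of all kept genes. Col1a1, a chain of the main collagen of skin, stood at 44.5, 117, 1339.9, 39.2 and 241 TPM, or 7.32 ± 0.98 log2(TPM + 1) (SD, n = 3). Postn, a matrix protein of activated fibroblasts, stood at 11.8, 67.1, 859, 7.67 and 127 TPM, and Pi16, a marker of fibroblasts around vessels, at 0.15, 1.42, 35.8, 0.25 and 1.96 TPM. The adipocyte list repeated this order of pieces in 12 of 12 genes for both divided tumors, against the same shares of all kept genes. It was led by the complement factor Cfd at 3.04, 18.8, 277, 0 and 39.6 TPM and by Car3, a carbonic anhydrase, at 0.39, 36.4, 99.7, 0.47 and 24.5 TPM. The median range of the fibroblast list was 1.54, 2.06 without the first piece of tumor 2 and 0.24 without tumor 1, and that of the adipocyte list was 1.32, 2.31 and 0.35. The small ranges without tumor 1 came from averaging the unlike pieces of tumor 2. Fibroblast list scores were 7.44 and 3.04 in those pieces, against 5.09 in tumor 3.

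Epidermal genes were concentrated in the first piece of tumor 2. In the keratinocyte list it was the highest library in 14 of 15 kept genes, against 30.5% of all. Its median excess over the second piece was 5.48 log2 units. The filter left out 2 genes of the list. Genes high in the first piece of tumor 2 pass it more easily, so the count partly follows from the filter. Krtdap, a protein of differentiating keratinocytes, stood at 0, 0, 271, 0 and 5.74 TPM. Krt10, a keratin of the upper epidermis, stood at 0.62, 0.26, 231, 0 and 7.82 TPM, and Lor, the main protein of the cornified envelope, at 0.18, 0.11, 113, 0 and 5.76 TPM. All 3 were listed at 0 in the second piece of tumor 2 and lay below 1 TPM in tumor 1. All 5 kept genes of the mast cell, basophil and eosinophil list were also highest in the first piece of tumor 2, with Mcpt4, a mast cell protease, at 0.43, 3.37, 43.5, 0 and 7.36 TPM. Only these 5 of the 11 list genes in the table passed the filter. They passed it largely through that library, so their count partly follows from the filter. The high levels of skin, fat and matrix genes moved with those of macrophage and T cell genes in that library, and the part of tissue content in any of these differences was not tested.

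**Figure D4:**
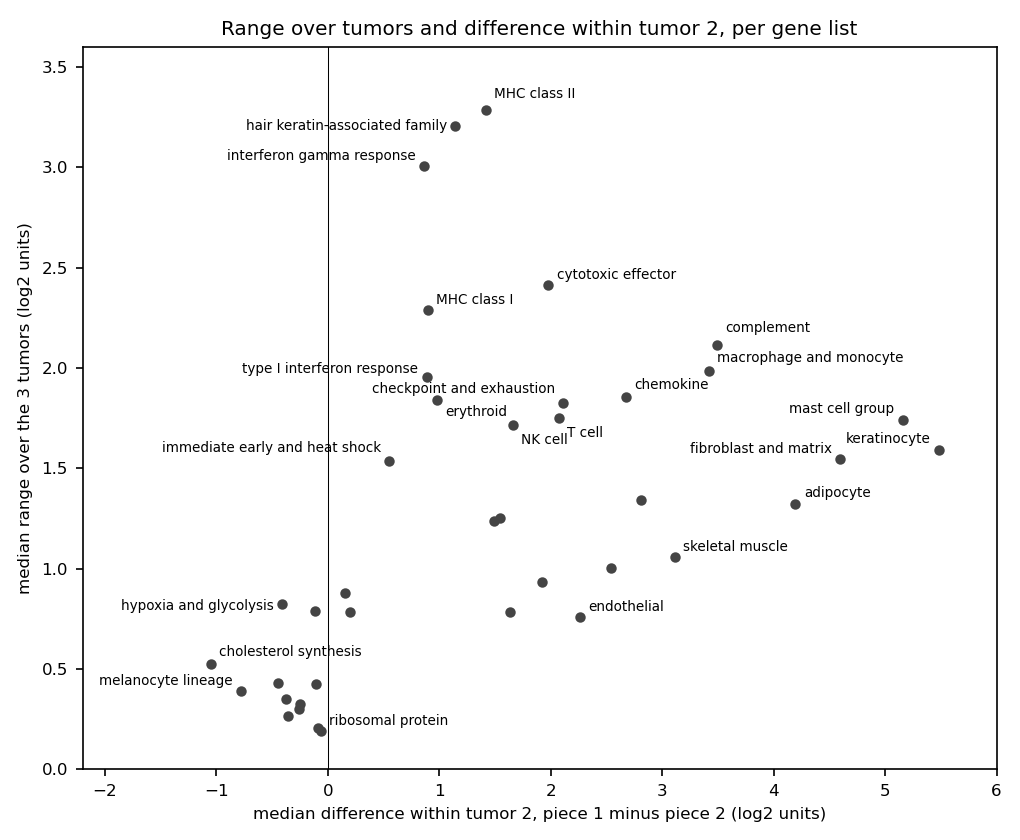
Median range over the 3 tumors against the median difference between the pieces of tumor 2 (first minus second), both in log2 units, with 1 point per gene list and the lists the text describes labelled. Interferon and MHC lists combine wide ranges with small differences between pieces (0.86 to 1.42), whereas keratinocyte, mast cell, fibroblast and adipocyte lists differ by 4.20 to 5.48 between the pieces.

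Hair genes had a pattern of their own, shared by 1 piece of tumor 1 and tumor 3. Keratin-associated proteins fill the space between keratin filaments in the hair shaft and are made in growing follicles. This family was taken up after its members appeared among the widest genes. Of 56 Krtap symbols in the table, 43 were kept, and in all 43 the second piece of tumor 1 and tumor 3 lay above the other 3 libraries. In 40 of the 43 only these libraries lay above the midpoint of the gene's values, against 5.14% of all kept genes. Tumor 2 was the lowest tumor in 43 of 43, against 47.7% of all kept genes, and tumor 3 the highest in 42, against 32.7%. Their summed level over the 56 symbols was 31.9, 1107, 77.9, 0 and 1025 TPM, and all 56 were listed at 0 in the second piece of tumor 2. Members passed the filter on mean TPM mainly through the second piece of tumor 1 and tumor 3, so these counts partly follow from the selection. List scores in those libraries were alike, at 3.90 and 3.91, and tumor 1 came out lower through its first piece, at 0.60. Krtap22-2 stood at 5.81, 113, 2.45, 0 and 103 TPM, or 4.13 ± 2.96 log2(TPM + 1) (SD, n = 3). Krtap8-1 stood at 4.90, 175, 8.30, 0 and 139 TPM, and Krtap15 at 1.39, 73.8, 1.12, 0 and 62.1 TPM. Krt33a, a keratin of the hair cortex, stood at 0.32, 31.8, 1.59, 0 and 29.4 TPM. The hair genes therefore did not share the order of the epidermal genes, which were highest in the first piece of tumor 2. Members of the Krtap family resemble each other and can share reads. The median range was 3.21, 3.80 without the first piece of tumor 2, 1.90 without tumor 2 and 1.58 without tumor 3.

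Skeletal muscle genes were high in 3 libraries. All 17 kept genes lay higher in the second piece of tumor 1 than in its first and higher in the first piece of tumor 2 than in its second, by medians of 2.64 and 3.12 log2 units. Of all kept genes, 69.6% and 47.6% did so. Acta1, the actin of skeletal muscle, stood at 4.09, 117, 126, 5.63 and 72.8 TPM. Myh1, a fast myosin heavy chain, stood at 1.34, 17.0, 13.1, 0.75 and 16.2 TPM. Averaging the pieces left a median range of only 1.06, and it was 0.31 without tumor 3 and 2.18 without the first piece of tumor 2. Erythroid genes had yet another order, with the first piece of tumor 1 above its second in 7 of 7 kept genes, against 29.8% of all kept genes, and tumor 1 the highest tumor in 7, against 35.9%. Hbb-bs, a beta globin, stood at 848, 201, 364, 176 and 108 TPM, and Hba-a1, an alpha globin with a near-identical copy, at 401, 98.4, 171, 86.4 and 42.5 TPM. The erythroid median range was 1.84, and 0.70 without tumor 3. With mitochondrially encoded and hemoglobin genes left out it was 0.40, near the median of all kept genes.

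**Figure D5:**
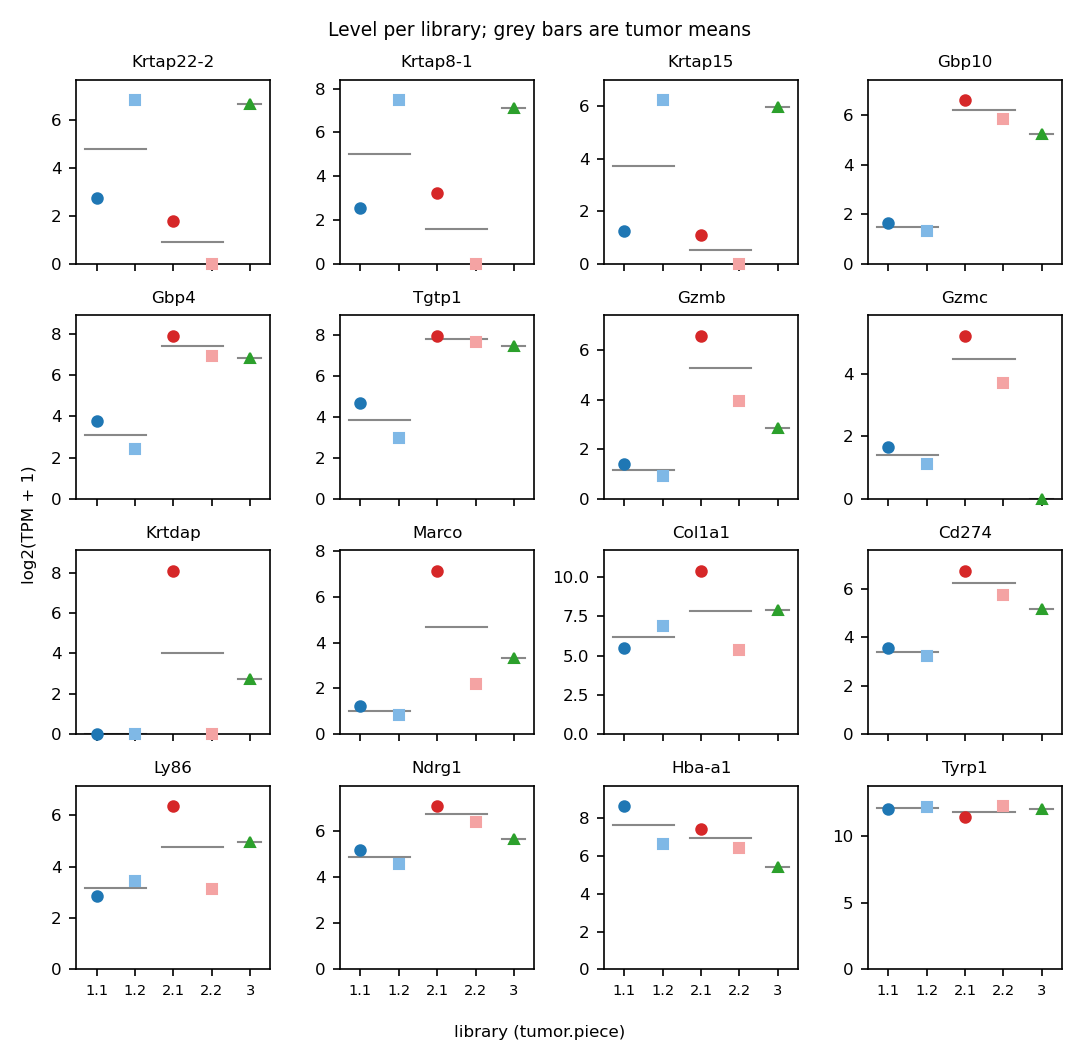
Log2(TPM + 1) of 16 genes in each library, with a grey bar at each tumor's mean and an axis from 0 in every panel. The Krtap genes are high in the second piece of tumor 1 and in tumor 3, the Gbp genes, Tgtp1 and Cd274 are low in both pieces of tumor 1, and Krtdap, Marco, Col1a1 and Ly86 differ most within tumor 2. Tyrp1 looks nearly level on its axis but is lowest in the first piece of tumor 2.

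Genes of low oxygen and of immediate stress were highest in tumor 2, in both of its pieces for the leading members. In the hypoxia and glycolysis list tumor 2 was the highest tumor in 21 of 25 genes, against 31.4% of all kept genes, and the first piece of tumor 1 lay above its second in 25 of 25, against 29.8%. Ndrg1, a gene induced by hypoxia, stood at 34.9, 23.01, 135, 83.2 and 49.7 TPM, and Adm, which encodes a vessel-dilating peptide, at 18.8, 10.7, 63.1, 44.6 and 23.6 TPM. Mt2, a metallothionein, stood at 1189.8, 804, 2623, 2319 and 1087 TPM. Unlike the immune and stromal lists, 18 of 25 hypoxia genes lay higher in the second piece of tumor 2 than in its first, against 51.8% of all kept genes. The median range was 0.82, and 0.24 without tumor 2 and 0.29 without tumor 1.

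In the immediate early and heat shock list tumor 2 was the highest tumor in 19 of 22 genes, against 31.4% of all kept genes. Fos, a subunit of the factor AP-1, stood at 20.2, 15.3, 165, 128 and 22.9 TPM, or 5.33 ± 1.62 log2(TPM + 1) (SD, n = 3). Fosb, its relative, stood at 0.37, 0.83, 10.8, 16.1 and 0.97 TPM, and Dusp1, a phosphatase of MAP kinases, at 8.90, 7.59, 129, 25.4 and 9.85 TPM. For Fos and Fosb both pieces of tumor 2 lay above the other 3 libraries, and tumors 1 and 3 lay close together. The median range was 1.54, and it was 1.24 without the first piece of tumor 2 and 0.48 without tumor 2.

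Cholesterol synthesis and cell cycle genes were lowest in the first piece of tumor 2, the reverse of the immune and stromal lists. That library was the lowest of the 5 in 18 of 19 cholesterol synthesis genes and in 30 of 30 DNA replication and mitosis genes, against 37.9% of all kept genes. Hmgcs1, which makes the precursor of mevalonate, stood at 129, 137, 49.1, 102 and 115 TPM, and Fdps, a later enzyme of the pathway, at 473, 428, 178, 420.5 and 388 TPM. Cdc6, which loads the replicative helicase, stood at 31, 28.7, 10.3, 11.4 and 25.5 TPM, low in both pieces of tumor 2. Pcna, the sliding clamp of replication, stood at 457, 473, 310.2, 394 and 425 TPM. The melanocyte lineage list was lowest in the same library in 19 of 22 genes. The median ranges were 0.52 for cholesterol synthesis, 0.43 for replication and mitosis and 0.39 for melanocyte lineage, and without the first piece of tumor 2 they were 0.18, 0.24 and 0.29.

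Within the melanocyte lineage most members were steady outside that library. Cdk2, a kinase gene under the control of the melanocyte factor MITF, had the narrowest range of the list at 0.14, with 519, 547, 393, 629 and 482 TPM. Myo5a, the motor that moves melanosomes, had a range of 0.15. Mitf itself stood at 234, 278, 111, 177 and 282 TPM, a range of 1.00, and was lowest in both pieces of tumor 2. Ednrb, an endothelin receptor also made in vessels, had the widest range at 3.63, 6.21, 34.0, 3.26 and 7.91 TPM and was the only member of the list highest in the first piece of tumor 2.

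Housekeeping lists had narrow ranges. Medians were 0.19 for 38 ribosomal protein genes, 0.20 for 30 proteasome genes, 0.26 for 24 nuclear genes of oxidative phosphorylation and 0.30 for 28 splicing factors, all below the 0.40 of all kept genes. Their libraries still had an order. Tumor 1 was the highest tumor in 35 of 38 ribosomal protein genes, against 35.9% of all kept genes. The first piece of tumor 2 was the lowest library in 22 of 24 oxidative phosphorylation genes and 23 of 28 splicing factors. It was also lowest in 21 of 30 proteasome and 23 of 38 ribosomal protein genes, against 37.9% of all kept genes. The narrowest member of a list could be nearly level. Rps9 stood at 1708, 1708, 1744, 1652 and 1744 TPM, a range of 0.039, and Cox6a1, a subunit of cytochrome oxidase, at 855, 876, 848, 844 and 844 TPM, a range of 0.037. Psmd4, the ubiquitin receptor of the proteasome, stood at 191, 188, 178, 189 and 191 TPM, a range of 0.061. Rps29 was the widest ribosomal protein gene at 2455, 1690.1, 1133, 1187 and 1262 TPM, highest in both pieces of tumor 1.

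The 15 genes with the narrowest range were Rpl22l1, Mau2, Rcc1l, Nsf, Hnrnpl, Pgp, Usp19, Septin2, Otub1, Tmem11, Rab35, Fip1l1, Rad54l2, Tmpo and Dvl1. Their ranges were at most 0.014, and 0 of the 15 were on a list. A narrow range over tumors did not always mean like libraries. Septin2, a filament-forming GTPase, stood at 78.9, 77.1, 76.0, 78.8 and 77.9 TPM, and its libraries differed by at most 1.04-fold in TPM + 1. Pgp, a phosphatase of glycolytic by-products, stood at 79.5, 64.0, 54.9, 93.1 and 71.1 TPM, so that pieces 1.68-fold apart in TPM + 1 averaged out. Rpl22l1, a paralog of a ribosomal protein and the narrowest of all, stood at 459, 474, 434, 502 and 467 TPM. With median-of-ratios scaling of the libraries, 0 of the 100 narrowest genes were shared with those found here, so which genes come narrowest depends on the scaling.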

How the data were processed

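RNA was extracted with TRIzol and libraries of polyadenylated RNA were sequenced on an Illumina NovaSeq, per the labels' protocols, and the submitters' processing notes name mm39, STAR 2.7.10b and RSEM 1.3.3 without their roles. Values deposited by the authors are log2(TPM + 1), as read from the numbers themselves: 99.9% of back-transformed values were multiples of 0.01 to within 0.001 hundredths, and they summed to 994956 to 996446 per library. Depth is unknown, so no counting interval is given.

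Pieces of a tumor were averaged as log2(TPM + 1), and genes with a mean TPM under 1 were left out. The tumors were tested as 1 factor in limma 3.58.1 (R 4.3.3) with lmFit and trended eBayes, Benjamini-Hochberg adjustment and a threshold of 0.05. Pieces gave the residual, and the fit was tested on simulated data. Score and range comparisons had no test. The genes named are the 25 most abundant, the 15 widest and 15 narrowest without Gm or Rik names, 2 to 4 of the widest members of each list, its most abundant or narrowest members, Ly86, Cd180, Pdcd1, Ctla4 and Cd274; others are marked where named. The 39 lists hold 738 genes, 15 of them absent from the table, and the members and lists were chosen with earlier results of these data known.

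Transcripts of near-copies of mitochondrial genes were compared with blastn 2.17.0 in GENCODE vM21, and promoters came from RefSeq. Coordinates are those of the promoters on GRCm38.p6, and none is given on mm39. Alternatives were other pseudocounts (0.1 and 0.5), no filter and a mean TPM of at least 5, median-of-ratios scaling, leaving out mitochondrial and hemoglobin genes, single pieces, averaging TPM, eBayes without trend, and leaving out each tumor or piece. Leaving out the first piece of tumor 2 from the ranges was an alternative chosen after seeing the data.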

Additional observations from a re-analysis of the deposited data

Results flagged for a closer look

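Each of 100 values, 40 list scores and 60 named genes on the log2(TPM + 1) scale, was examined for 1 library far from the other 4, meaning a gap to its neighbour of more than 0.71 of the range of the 5 libraries. Chance marks about 1 in 20 such groups, and the pieces of a tumor are not independent. In all, 8 were marked, 7 of them through the first piece of tumor 2.

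The first piece of tumor 2 was the lowest library by such a gap for the melanocyte lineage score at 7.66, the cholesterol synthesis score at 5.25 and the common reference score at 8.75. It was also the lowest for the genes Eef1a1 at 12.77, Dct at 11.64 and Tyrp1 at 11.39. The same piece was the highest library for Fth1, a ferritin chain, at 12.54. The second piece of tumor 2 was the highest for the score of the mitochondrially encoded genes, at 11.27.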

How the results depend on the processing

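Depth cannot be judged from TPM, and 3 tumors limit every range. The limma F test called 0 genes under all 14 alternatives, with 176 (without tumor 1) to 3700 (without the second piece of tumor 2) at an unadjusted p under 0.05, against 795. Of the 100 widest genes, 61 remained with a pseudocount of 0.1, 20 when tumors 1 and 2 were each read from their first piece, 60 from their second, 53 with pieces averaged as TPM, 63 without the first piece of tumor 2, and 44 to 61 when each tumor was left out. Of the 100 narrowest, 16 remained without a filter, 0 with median-of-ratios scaling, 8 with only the first piece, 2 with only the second, 15 without the first piece of tumor 2, and 8 to 13 when each tumor was left out. With only the first piece the median range was 0.76 for melanocyte lineage, 3.92 for macrophage and 4.42 for fibroblast genes. The fibroblast value was 2.71 with pieces averaged as TPM, and the hair keratin-associated value 5.23 with a pseudocount of 0.1. Leaving out each tumor gave median ranges of 0.13 to 0.38 for melanocyte lineage, 0.35 to 1.83 for macrophage, 0.38 to 2.89 for interferon gamma response, 0.24 to 1.502 for fibroblast and 0.073 to 0.18 for ribosomal protein genes. When genes under a mean of 5 TPM were left out, the neutrophil and mast cell lists kept no gene, and without mitochondrial genes their own list had none. No paired analysis was possible because only the vector group is used and its replicate numbers are its tumors.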

Other observations

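Other cell types with few kept genes were also highest in the first piece of tumor 2, as were 17 of 18 endothelial genes, 11 of 11 pericyte and smooth muscle genes, 9 of 11 dendritic cell genes, 5 of 5 neutrophil genes, 4 of 5 B and plasma cell genes and 4 of 4 regulatory T cell genes, against 30.5% of all kept genes. The filter left out 6 neutrophil, 9 B and plasma cell and 5 regulatory T cell genes. Genes high in that library pass it more easily, so these counts partly follow from it. In library order, Vcam1, an adhesion molecule of activated vessels, stood at 3.28, 6.11, 77.3, 6.64 and 13.1 TPM. Tagln, a smooth muscle protein, stood at 9.24, 6.69, 80.4, 8.61 and 22.4 TPM. Ighm, the heavy chain of IgM, stood at 0.76, 2.23, 29.3, 0.67 and 7.91 TPM. The second piece of tumor 2 lay with tumor 1 for these 3 genes. Irf8, a factor of dendritic cells that interferon gamma also induces, differed from them at 11.1, 8.27, 153, 84.6 and 63.7 TPM, with both pieces of tumor 1 below every other library. Schwann cell and nerve genes had no such order, with the first piece of tumor 2 highest in 4 of 10 and lowest in 4.

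The unfolded protein response list stayed narrow as a whole, with a median range of 0.43 over 22 genes and list scores of 7.11 to 7.32. Its 3 widest members did not, and all 3 were high in both pieces of tumor 2. Atf3, a stress-induced factor, stood at 10.7, 10.9, 55.9, 46.2 and 21.7 TPM. Ddit3, which encodes CHOP, stood at 91.05, 81.5, 180.02, 220.08 and 99.7 TPM, and its target Trib3 at 18.9, 24.8, 36.6, 62.9 and 31.5 TPM. For Ddit3 and Trib3 the second piece of tumor 2 was the highest library, unlike the immune and stromal genes. Rmrp, a noncoding RNA without a poly(A) tail, stood at 2.90, 5.04, 0, 0 and 7.23 TPM and so was listed at 0 in both pieces of tumor 2.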
